A study of Mus musculus with 8 samples.

Results

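The Egr, Nr4a and Myc factors are genes that T cell receptor signals switch on within a short time of engagement. The group followed here holds 8 named genes of the 23420 gene symbols in the count files: Egr1, Egr2, Egr3, their corepressor Nab2, the orphan nuclear receptors Nr4a1, Nr4a2 and Nr4a3, and Myc. They were chosen by name, as factors that receptor signals induce, with earlier results of these data known. In all, 7 of the 8 had counts and passed the filter on low values; Egr2 had no count in any library.

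RNA sequencing covered thymocytes, which are T cells still maturing in the thymus, from wild-type animals of B6 and BALB strain (no substrain is labelled), with 2 libraries in each of 4 groups and 8 libraries in all. The B6 DP and BALB DP groups are sorted DP thymocytes, cells that carry both CD4 and CD8, lack CD69 and stain low or intermediate with H57, an antibody against the beta chain of the T cell receptor. The B6 whole and BALB whole groups are whole thymocytes of the same strains, for which no marker gate is labelled. No allele or treatment is labelled in any group, and neither the ages of the mice nor the source of each replicate is stated in the labels used here, so the spread between replicates may be technical.

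When the T cell receptor binds its ligand, calcium and MAP kinase signals reach factors such as NFAT, MEF2 and SRF, which switch on immediate early genes without new protein synthesis. Egr1, Egr2 and Egr3 are zinc finger activators of that class that act in positive selection of thymocytes, and Nab2 binds them and restrains them. The Nr4a receptors work without a known ligand of the usual kind, and Nr4a1 and Nr4a3 are tied to the death of thymocytes that bind self peptides strongly. Myc, a basic helix-loop-helix factor that pairs with Max, drives growth and ribosome production.

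Counts in genes ran from 2632083 to 5974684 per library. Levels are in CPM, counts scaled to a common library size in which the trimmed mean of M values (TMM) sets the effective size. BALB DP replicate 1 was the deepest library and BALB DP replicate 2 the shallowest, and this pair agreed least, with a Pearson correlation of log2 CPM across genes of 0.977 against 0.981 to 0.988 for the other pairs. The chi-square per degree of freedom between both libraries was 18.3 in BALB DP and 1.62 to 4.35 in the other groups. The 7 DP thymocyte markers used (Rag1, Rag2, Cd4, Cd8a, Cd8b1, Arpp21 and Ptcra) summed to 11175 to 18362 CPM in the DP libraries, all of them with counts, so the defining markers of the label were present. The 5 mature thymocyte markers used (S1pr1, Klf2, Ccr7, Il7r and Gimap4) summed to 6.13 to 8.23 CPM in the DP libraries and 194 to 313 CPM in the whole libraries, with S1pr1 at 0 in B6 DP. Myeloid and dendritic cell markers were at 28.9 to 45.7 CPM in the DP libraries and 199 to 258 CPM in the whole libraries, with Itgax and Flt3 at 0 in B6 DP.

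The bases just before the RefSeq starts of the Nr4a genes are shown because these 3 relatives carry the same short motif in different forms. Any link between these motifs and the levels or responses of the genes was not tested. Each line gives the 250 bases before the RefSeq start in build GRCm38.p6, 5′ to 3′ on the gene's own strand. The Nr4a1 window lies inside its GENCODE M21 gene span, whose 5′ end is at 101254269. The Nr4a3 window begins before its GENCODE 5′ end at 48045153 and runs past it. Capitals mark matches, on either strand, to the cyclic AMP response element (CRE) core TGACG, its extended variant TGCGTCA, the EGR site GCGNGGGCG, the NR4A monomer site AAAGGTCA, the Myc E-box CACGTG and the CArG box of SRF. Every TGCGTCA also holds a TGACG on the other strand.
Nr4a1, chr15:101266596-101266845, plus strand: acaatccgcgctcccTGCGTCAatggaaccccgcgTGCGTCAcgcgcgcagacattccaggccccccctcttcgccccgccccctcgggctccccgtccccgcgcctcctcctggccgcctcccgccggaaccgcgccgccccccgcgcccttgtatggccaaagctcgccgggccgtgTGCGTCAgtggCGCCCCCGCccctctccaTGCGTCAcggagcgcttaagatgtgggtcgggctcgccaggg
Nr4a3, chr4:48045055-48045304, plus strand: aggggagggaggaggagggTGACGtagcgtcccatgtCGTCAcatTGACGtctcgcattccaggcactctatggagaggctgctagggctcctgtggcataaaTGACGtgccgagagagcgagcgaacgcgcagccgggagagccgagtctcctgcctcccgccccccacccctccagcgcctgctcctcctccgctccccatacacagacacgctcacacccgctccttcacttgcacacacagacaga
Nr4a2, chr2:57124004-57124253, minus strand: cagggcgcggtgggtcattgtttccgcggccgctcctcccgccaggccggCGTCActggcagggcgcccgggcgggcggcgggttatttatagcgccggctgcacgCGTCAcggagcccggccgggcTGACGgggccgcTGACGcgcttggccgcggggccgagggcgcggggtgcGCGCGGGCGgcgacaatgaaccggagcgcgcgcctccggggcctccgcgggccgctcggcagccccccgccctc

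Each of the 3 windows held 4 CRE cores. In Nr4a1 all 4 lay in the form TGCGTCA, beginning 235, 215, 71 and 42 bases before the RefSeq start. Of 32841 such windows in the table, 17.8% held at least 1 TGACG and 45 windows, or 0.137%, held at least 4. The variant TGCGTCA was found in 1.75% of windows, and 1 window, that of Nr4a1, held at least 4. The minimum of 4 was set after these genes were read. Nr4a1 and Nr4a2 each held 1 EGR site, which 4.70% of windows hold, and Nr4a3 none. None of the 3 windows held an NR4A monomer site, an E-box or a CArG box, which 1.34%, 6.02% and 1.47% of windows hold. The Nab2 window held none of the 6 motifs. It spans chromosome 10, 127666704 to 127666953, minus strand, inside the GENCODE M21 gene span, whose 5′ end is at 127668568. The bases before that end were not read. Egr1, Egr3 and Myc had no window in the table, and the 5 windows of Egr2 are not shown. A match is a string of letters and not evidence of binding.

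Egr1, Egr3, Nab2, Nr4a1, Nr4a3 and Myc were higher in whole than in sorted DP thymocytes, in both strains. In B6 and in BALB alike, 6 of the 7 tested members rose, none fell, and Nr4a2 did not pass, with edgeR's quasi-likelihood test at a Benjamini-Hochberg adjusted p under 0.05. Of all 11409 genes tested, 6.89% were called higher and 3.27% lower in B6 whole thymocytes, and 10.6% higher and 6.59% lower in BALB whole thymocytes. The whole libraries lay above the DP libraries without overlap for 7 of the 7 in B6 and 6 of the 7 in BALB, as they did for 30.8% and 27.6% of all genes tested. The median log2 fold change of the 7 members was 2.51 in B6 and 1.82 in BALB, beside 0.0023 and -0.0042 over all genes tested. The DP sort left out cells with CD69, itself a gene that receptor signals induce. In these bulk samples, fewer cells of a type and less RNA per cell cannot be told apart. Markers of mature thymocytes and of myeloid cells moved with the members. The DN precursor markers used (Il2ra, Kit, Cd44, Hes1 and Gata3) rose too. They summed to 116 to 125 CPM in B6 DP and 220 to 262 in B6 whole thymocytes. In BALB they summed to 179 to 180 and 257 to 263. B cell markers were also higher in the whole libraries of both strains. Endothelial and mesenchymal markers overlapped, at 142 to 156 CPM in B6 DP and 153 to 163 in B6 whole thymocytes. In BALB DP and BALB whole thymocytes they overlapped too, at 122 to 136 and 134 to 166 CPM. DP thymocyte markers fell, from 17583 to 18362 CPM to 10565 to 11049 in B6. In BALB they fell from 11175 to 11400 to 7847 to 8351. Innate-like T cell markers summed to 0.314 to 0.914 CPM in B6 DP and 27.6 to 36.2 in B6 whole, and to 2.28 to 2.72 in BALB DP and 107 to 119 in BALB whole thymocytes. Thymic epithelial markers summed to 5.34 to 5.71 and 22.7 to 33.6 CPM in B6, and to 2.80 to 4.66 and 73.9 to 79.6 in BALB. The part of these cells in the differences was not tested.

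**Figure D1:**
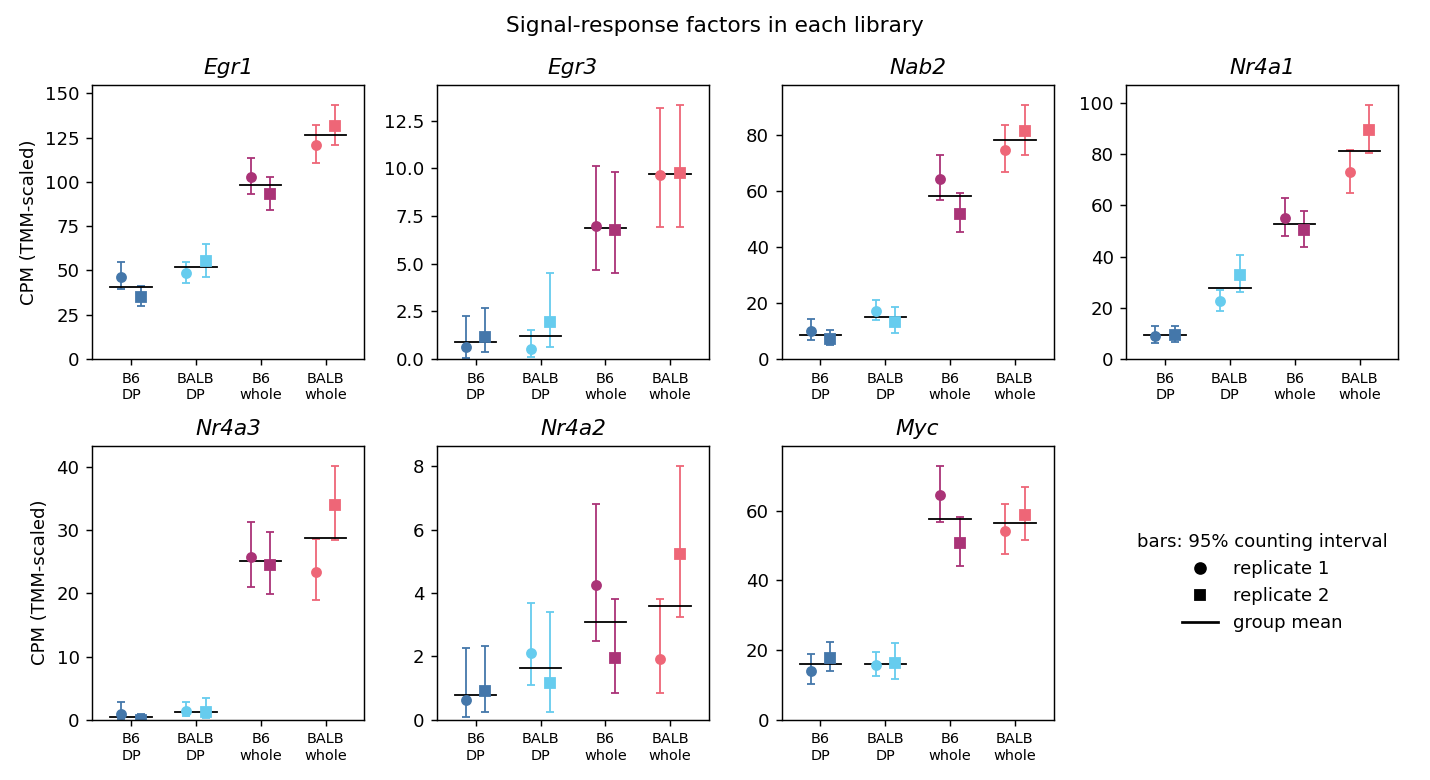
CPM of the 7 members with counts in each of the 8 libraries, 1 panel per gene with its own axis starting at 0; circles are replicate 1, squares replicate 2, bars the 95% counting interval of a library and black lines the group mean. Every whole library lies above every DP library for each gene except Nr4a2, where B6 whole replicate 2 (1.94 CPM) and BALB whole replicate 1 (1.93 CPM) lie below BALB DP replicate 1 (2.10 CPM).

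Egr1 had the highest mean level per length of exon in every group, within the spread of Myc and Nab2 in B6 whole and of Nab2 in BALB whole thymocytes. Its 2 libraries, in order of replicate, held 46.5 and 35.2 CPM in B6 DP, 48.5 and 55.1 in BALB DP, 103 and 93.1 in B6 whole, and 121 and 132 in BALB whole thymocytes. No 2 groups overlapped, and the order ran from B6 DP through BALB DP and B6 whole to BALB whole. Whole over DP, Egr1 was 2.42-fold higher in B6 (95% confidence interval 1.93 to 3.04; edgeR adjusted p = 0.000330) and 2.45-fold in BALB (1.97 to 3.07; adjusted p = 0.000141). Among the 6 members that rose, these were the smallest folds. Egr1 stood at a mean of 40.8 ± 8.0 CPM (SD, n = 2) in B6 DP and 51.8 ± 4.7 in BALB DP, so its transcript was present in the CD69-negative sort.

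Egr3, a relative of Egr1 that shares its binding site, was near the counting limit in DP cells. Chromosome 14, 70077203 to 70082614 in GRCm38, holds the gene. B6 DP libraries held 0.628 and 1.14 CPM (2 and 5 counts) and BALB DP libraries 0.526 and 1.94 CPM (3 and 5 counts). Whole thymocytes held 6.999 and 6.77 CPM in B6 and 9.66 and 9.74 in BALB, with no overlap with the DP libraries. The rise was 7.26-fold in B6 (95% confidence interval 3.37 to 15.6; edgeR adjusted p = 0.00424) and 9.52-fold in BALB (4.66 to 19.5; adjusted p = 0.000749). Both values rest on few DP counts. The B6 log2 fold change of 2.86 was 2.55 without B6 DP replicate 1 and 3.41 without B6 DP replicate 2. In BALB the log2 fold change of 3.25 was 2.30 without BALB DP replicate 1 and 4.11 without BALB DP replicate 2. Per kilobase, Egr3 made up 1.09% to 3.46% of the sum of Egr1 and Egr3 in the DP libraries and 6.47% to 7.51% in the whole libraries.

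Egr2, the remaining Egr activator of the group, was listed at 0 in all 8 libraries. A count of 0 allows up to 3 counts, which is 0.526 to 1.16 CPM depending on the library, for counting error alone. In the files 5986 of 23420 symbols had no count in any library, and the gene annotation behind the counts is not stated, so no level is drawn from this.

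Nab2, the corepressor that Egr factors themselves induce, rose more than Egr1. It held 10.04 and 7.31 CPM in B6 DP, 17.2 and 13.2 in BALB DP, 64.5 and 52.0 in B6 whole and 74.9 and 81.4 in BALB whole thymocytes. Again no groups overlapped. The rise from DP to whole was 6.81-fold in B6 (95% confidence interval 4.93 to 9.40; edgeR adjusted p = 1.17e-05) and 4.99-fold in BALB (3.74 to 6.67; adjusted p = 1.12e-05). Its relative Nab1, with the same kind of function, was at 73.1 ± 4.9 CPM in B6 DP and 80.7 ± 5.0 in B6 whole thymocytes and was not called in any comparison. In GENCODE M21, Nab2 exons (chromosome 10, 127660918 to 127668568) overlap opposite-strand exons of Gm16229 by 1050 bases, of Nemp1 by 151 and of Stat6 by 40. The library kit does not keep strand, so reads there cannot be assigned to 1 gene.

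Nr4a1, also called Nur77, was the main Nr4a transcript in every library. It held 9.10 and 9.37 CPM in B6 DP, 22.6 and 33.0 in BALB DP, 55.2 and 50.3 in B6 whole and 72.9 and 89.4 in BALB whole thymocytes. The 4 groups were fully apart in that order. Whole over DP, Nr4a1 was 5.69-fold higher in B6 (95% confidence interval 4.08 to 7.94; edgeR adjusted p = 3.42e-05) and 3.01-fold in BALB (2.27 to 3.997; adjusted p = 0.000177). Per kilobase it made up 89.3% to 95.1% of the summed Nr4a level in the DP libraries and 74.6% to 82.6% in the whole libraries.

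Nr4a3, which overlaps Nr4a1 in function in thymocytes, had the largest fold of the members. B6 DP libraries held 3 and 0 counts, BALB DP libraries 8 and 3, B6 whole libraries 103 and 101 and BALB whole libraries 97 and 136. In CPM the DP libraries were at 0 to 1.40 and the whole libraries at 23.4 to 34.0. With 3 counts over the B6 DP group, the B6 ratio of whole to DP was 63.2, with an exact 95% counting interval of 21.3 to 309 (edgeR adjusted p = 3.57e-05). All 3 counts were in B6 DP replicate 1, and without B6 DP replicate 2 the fitted log2 fold change was 4.70 in place of 5.87. In BALB the fold was 21.2 (95% confidence interval 11.5 to 39.0; edgeR adjusted p = 2.89e-05). The share of Nr4a3 in the summed Nr4a level per kilobase was 0% to 5.41% in the DP libraries and 15.5% to 21.6% in the whole libraries.

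Nr4a2 was counted in every library but stayed low. It held 0.628 and 0.914 CPM in B6 DP, 2.10 and 1.16 in BALB DP, 4.25 and 1.94 in B6 whole and 1.93 and 5.24 in BALB whole thymocytes. The libraries of a whole group lay far apart from each other, and of the neighbouring groups in order of level only B6 DP and BALB DP did not overlap. Its log2 fold change, whole over DP, was 1.92 ± 0.74 (SE) in B6 (edgeR adjusted p = 0.133) and 0.99 ± 0.60 in BALB (adjusted p = 0.288). Leaving out single libraries gave 1.25 to 2.38 in B6, lowest without B6 whole replicate 1, and 0.11 to 1.58 in BALB, lowest without BALB whole replicate 2. In B6 the call was made without the filter on low counts (edgeR adjusted p = 0.0426) and without BALB DP replicate 1 and BALB whole replicate 1 together (0.0452).

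Myc rose in both strains, by 3.57-fold and 3.54-fold. It held 14.1 and 17.8 CPM in B6 DP, 15.8 and 16.3 in BALB DP, 64.5 and 50.8 in B6 whole and 54.3 and 58.9 in BALB whole thymocytes. The DP groups overlapped each other, the whole groups overlapped each other, and DP and whole lay apart. The gene is at chromosome 15, 61985391 to 61990374 in GRCm38. Whole over DP, Myc was 3.57-fold higher in B6 (95% confidence interval 2.70 to 4.71; edgeR adjusted p = 9.51e-05) and 3.54-fold in BALB (2.68 to 4.68; adjusted p = 5.83e-05). The difference between these changes was -0.01 on the log2 scale, with a 95% confidence interval from -0.59 to 0.57.

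**Figure D2:**
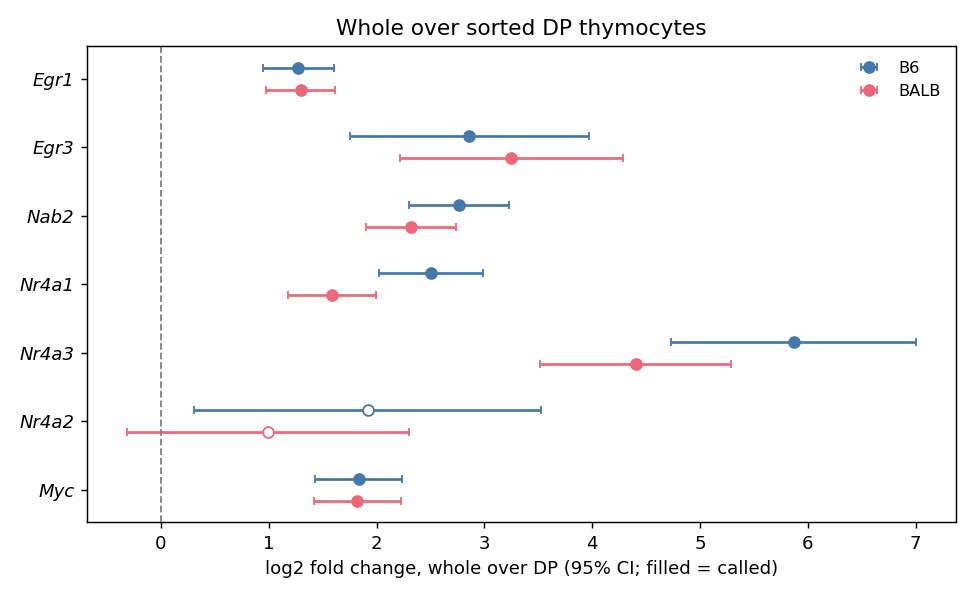
Log2 fold change of each member, whole over sorted DP thymocytes, in B6 (blue) and BALB (red), with 95% confidence intervals from edgeR; filled points passed an adjusted p of 0.05. Nr4a3 shows the largest change, where the fitted B6 value rests on 3 counts in DP, Egr1 the smallest of those called, and Nr4a2 is open in both strains.

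Per length, ranks 1 to 4 were held by the same members in the same order in B6 DP and B6 whole thymocytes. Nr4a3, with 3 counts in B6 DP, moved there from rank 7 to rank 5. CPM per kilobase of merged GENCODE M21 exons in B6 DP was 9.10 ± 1.8 for Egr1, 5.88 ± 0.96 for Myc, 2.95 ± 0.66 for Nab2 and 2.63 ± 0.05 for Nr4a1 (SD, n = 2), so that Nab2 and Nr4a1 did not differ beyond their spread. In B6 whole thymocytes the values were 21.9 ± 1.6 for Egr1, 21.2 ± 3.6 for Myc and 19.8 ± 3.0 for Nab2, and these 3 did not differ beyond their spread. Nab2 is scaled by all its exon bases, including those that overlap opposite-strand exons, and the effect on its rank was not tested. Nr4a1 followed at 15.04 ± 0.99, then Nr4a3 at 4.19 ± 0.16, Egr3 at 1.56 ± 0.04 and Nr4a2 at 0.76 ± 0.40 CPM per kilobase. BALB DP differed from B6 DP in its second place, held by Nr4a1 at 7.92 ± 2.1 CPM per kilobase, above Myc at 5.90 ± 0.14 by less than the spread of Nr4a1. In BALB whole thymocytes the order was Egr1 at 28.2 ± 1.7, Nab2 at 26.6 ± 1.6, Nr4a1 at 23.1 ± 3.3 and Myc at 20.8 ± 1.2. The libraries of neighbours in that order overlapped.

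**Figure D3:**
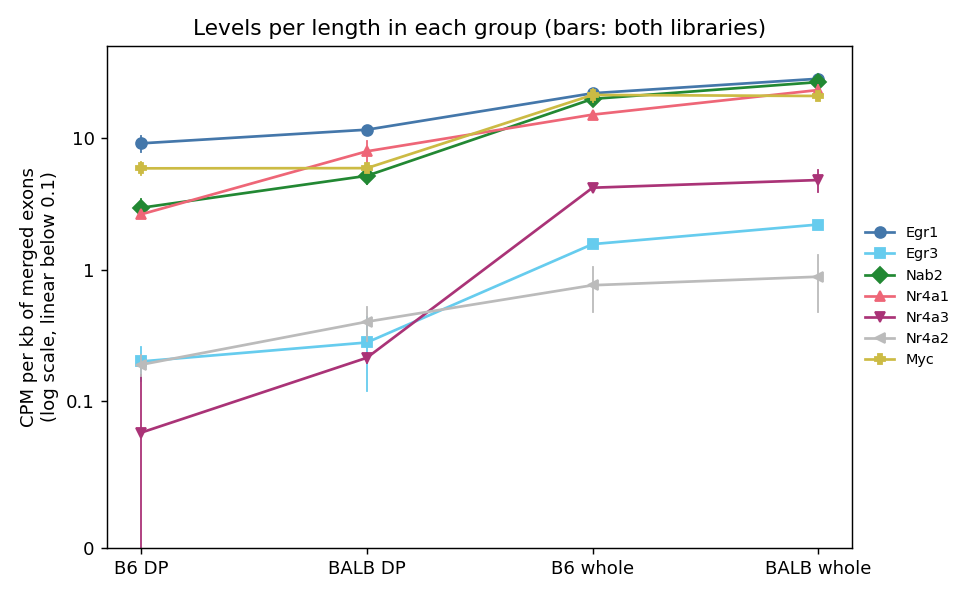
Mean CPM per kilobase of merged exons of the 7 members with counts in the 4 groups, on a log axis that is linear below 0.1; thin vertical bars join both libraries of a group. Egr1, Myc, Nab2 and Nr4a1 lie between 15.04 and 28.2 in whole thymocytes and are spread from 2.63 to 11.6 in DP thymocytes.

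Between the strains, Nr4a1 and Nab2 were higher in BALB than in B6 DP thymocytes, and Myc was not detectably different. In DP thymocytes, 2 of the 7 tested members were called higher in BALB, none lower, and 5 did not pass; 6.85% of all genes tested were called higher and 6.14% lower. The BALB DP libraries lay above the B6 DP libraries without overlap for 5 of the 7, and for 26.1% of all genes tested. Nr4a1 was 2.90-fold higher (95% confidence interval 2.04 to 4.14; edgeR adjusted p = 0.00143), with both BALB DP libraries above both B6 DP libraries. Leaving out single libraries gave log2 fold changes of 1.30 to 1.83 for Nr4a1 in place of 1.54 ± 0.23. The highest came without BALB DP replicate 1, whose 22.6 CPM was the lower of the pair. Nab2 was 1.83-fold higher (95% confidence interval 1.27 to 2.64; edgeR adjusted p = 0.0356).

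The Nab2 call was not stable. It was lost without B6 DP replicate 1 (edgeR adjusted p = 0.0624), B6 DP replicate 2 (0.281), BALB DP replicate 1 (0.275), BALB whole replicate 1 (0.0570) or BALB whole replicate 2 (0.0577). DESeq2 (adjusted p = 0.0547), limma-voom (0.0581) and a fit to the 4 DP libraries alone (edgeR adjusted p = 0.127) did not make it either.

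Egr1 was higher in BALB DP by 0.34 ± 0.16 on the log2 scale (edgeR adjusted p = 0.173), with groups that did not overlap. The Myc difference was -0.01 ± 0.21, with a 95% confidence interval from -0.47 to 0.44. For Egr3 and Nr4a2, at 15 or fewer counts per DP group, the intervals were wide, from -1.52 to 1.72 and from -0.64 to 2.92. The Nr4a2 value of 1.14 was 0.54 without BALB DP replicate 1. Nr4a3 had 11 counts in BALB DP against 3 in B6 DP, a ratio of 3.35 with an exact 95% counting interval of 0.884 to 18.7 (edgeR adjusted p = 0.270). It rests on 1 B6 library: the fitted log2 fold change of 1.66 was 0.49 without B6 DP replicate 2, and without B6 DP replicate 1 no B6 DP count is left. Between the same groups the DP thymocyte markers summed to 17583 to 18362 CPM in B6 and 11175 to 11400 in BALB, the DN precursor markers to 116 to 125 and 179 to 180, the mature thymocyte markers to 7.85 to 8.23 and 6.13 to 7.38, and the innate-like T cell markers to 0.314 to 0.914 and 2.28 to 2.72. Of the DN precursor markers, Il2ra went against the sum, at 10.5 ± 0.27 CPM in B6 DP and 1.63 ± 0.66 in BALB DP. The part of these cell types in the strain differences was not tested.

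In whole thymocytes no member passed between strains with edgeR's quasi-likelihood test. The share of all genes tested that was called was 4.59%. Unadjusted, 3 members had p under 0.05, which were Nr4a1 (0.00398), Egr1 (0.0227) and Nab2 (0.0258). DESeq2 and limma-voom called 0 members, and a fit to the 4 whole libraries alone called 3, again Egr1, Nab2 and Nr4a1. Nr4a1 was higher in BALB whole thymocytes by a log2 fold change of 0.62 ± 0.17 (edgeR adjusted p = 0.0730). It passed without BALB DP replicate 1 (edgeR adjusted p = 0.00491) and without BALB DP replicate 2 (0.00519), which changes the estimated spread and not the libraries compared. Egr1 was higher by 0.36 ± 0.14 and Nab2 by 0.42 ± 0.17, each with groups that did not overlap. BALB whole lay above B6 whole without overlap for 4 of the 7 members and for 25.6% of all genes tested. The mature thymocyte markers summed to 194 to 221 CPM in B6 whole and 309 to 313 in BALB whole thymocytes, and the innate-like T cell markers to 27.6 to 36.2 and 107 to 119. Thymic epithelial markers were at 22.7 to 33.6 and 73.9 to 79.6 CPM, myeloid markers at 199 to 213 and 243 to 258, and DP thymocyte markers at 10565 to 11049 and 7847 to 8351. The part of these cells in the strain differences of whole thymocytes was not tested. Myc differed by -0.03 ± 0.16, with a 95% confidence interval from -0.38 to 0.33.

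**Figure D4:**
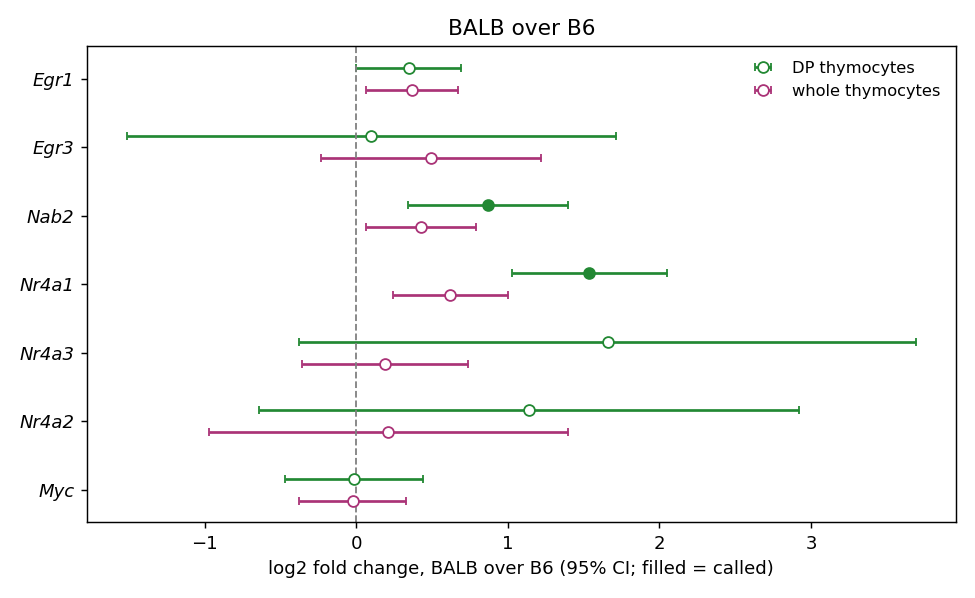
Log2 fold change of each member, BALB over B6, in DP thymocytes (green) and whole thymocytes (purple), with 95% confidence intervals from edgeR; filled points passed an adjusted p of 0.05. Nr4a1 and Nab2 in DP thymocytes are filled, Myc sits at -0.01 and -0.03, and the low-count Egr3, Nr4a2 and Nr4a3 have the widest intervals.

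The strain difference was tested for a change between populations, as the difference of the log2 fold changes in whole and DP thymocytes. No member passed with edgeR's quasi-likelihood test, which called 0.123% of all genes, and DESeq2 and limma-voom called none of the members. Nr4a1, at an unadjusted p of 0.00907, was the 1 member with a p under 0.05. Its strain difference was smaller in whole than in DP thymocytes by 0.92 ± 0.29 on the log2 scale (value -0.92, edgeR adjusted p = 0.291). Without BALB DP replicate 1 and BALB whole replicate 1 together the value was -1.08 and passed (edgeR adjusted p = 0.0470). For Egr1 it was 0.02 ± 0.21 and for Nab2 -0.45 ± 0.29.

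Other genes that receptor signals induce moved with the members from DP to whole thymocytes. Of 20 listed, 19 were tested, and 13 rose and 1 fell in B6, 14 rose and 1 fell in BALB. Among all genes tested, 6.89% rose and 3.27% fell in B6, and 10.6% rose and 6.59% fell in BALB. Their median log2 fold change was 1.31 in B6 and 1.29 in BALB. Itm2a, a membrane protein gene induced in positive selection, went from 8.12 ± 0.50 to 89.3 ± 8.7 CPM in B6 and from 12.6 ± 0.91 to 88.7 ± 5.7 in BALB. Cd69, the activation marker used in the sort, went from 13.9 ± 0.64 to 42.7 ± 3.3 CPM in B6. Leaving out cells with CD69 favoured this direction in advance. Il2ra and Ccr7, which also rose in both strains, serve here as a DN precursor and a mature thymocyte marker too. The part of the sort and of cell composition in these rises was not tested. Pdcd1, an inhibitory receptor gene, went from 2.15 ± 0.81 to 14.9 ± 0.87 CPM in BALB. Between strains in DP thymocytes 2 of the 19 rose in BALB and 2 fell, beside 6.85% and 6.14% of all genes tested; without BALB DP replicate 1 and BALB whole replicate 1 together, 4 rose and 1 fell. The risers over all libraries were Cd5, a negative regulator of receptor signalling (log2 fold change 0.87 ± 0.12; edgeR adjusted p = 0.000669), and Tox, a nuclear factor of positive selection (0.57 ± 0.14; adjusted p = 0.0202). Il2ra, a receptor chain that DN precursors also carry, fell by 2.54 ± 0.36 on the log2 scale (adjusted p = 0.000793).

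Several early stress genes fell where Egr1 rose. Of 13 listed, 8 were tested, and 4 fell in B6 whole thymocytes and 6 in BALB whole thymocytes, with none called higher. The share of all genes tested that fell was 3.27% in B6 and 6.59% in BALB. Of those that did not pass, Ier2 had a log2 fold change of 0.55 in B6 and -0.08 in BALB. Jun, a subunit of the AP-1 factor, fell from 123 ± 19.9 to 7.22 ± 2.8 CPM in B6 and from 160 ± 16.3 to 8.38 ± 2.6 in BALB. Its partner Fos fell from 9.29 ± 1.5 to 2.34 ± 0.58 CPM in B6, and Dusp1, a phosphatase that switches off MAP kinases, from 27.4 ± 9.7 to 13.7 ± 2.6. The protocol names a live cell sort alike for all 8 libraries and does not say how whole thymocytes were handled, so handling and population cannot be told apart. In the strain comparison of DP thymocytes 1 of the 8 rose, beside 6.85% of all genes tested. It was Ier2, an immediate early gene, from 13.6 ± 0.15 CPM in B6 to 30.4 ± 5.1 in BALB (edgeR adjusted p = 0.00547).

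Of 25 listed genes that Myc is known to activate, 24 were tested, and 14 rose in whole thymocytes of B6 and 9 in those of BALB. None was called lower, 10 did not pass in B6 and 15 did not in BALB. Among all genes tested, 6.89% were called higher in B6 and 10.6% in BALB. The median log2 fold change was 0.60 in B6 and 0.29 in BALB, against 1.83 and 1.82 for Myc itself; Srm, at 2.66 in B6, was above Myc. Mybbp1a, a nucleolar protein gene, went from 64.2 ± 6.5 to 143 ± 5.8 CPM in B6 and from 79.6 ± 2.8 to 150 ± 4.2 in BALB. Srm, the spermidine synthase gene, went from 2.73 ± 1.6 to 18.3 ± 2.0 CPM in B6, and Polr1b, a subunit of RNA polymerase I, from 7.84 ± 0.44 to 21.99 ± 1.7 in BALB. Without BALB DP replicate 1 and BALB whole replicate 1, more of them were called higher in both strains. Over all genes tested, more were then called in B6 and fewer in BALB. In DP thymocytes 4 of the 24 were higher in BALB and none lower, beside 6.85% and 6.14% of all genes tested. Without those libraries, calls in this comparison went in both directions. Among the 4 were the transferrin receptor gene Tfrc (log2 fold change 0.68 ± 0.11; edgeR adjusted p = 0.00263) and Cdk4, a cyclin-dependent kinase (0.59 ± 0.13; adjusted p = 0.0101).

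Partners and antagonists of Myc moved little. Of 10 tested, 1 fell in B6 whole thymocytes and none was called in BALB. In either direction, 10.2% of all genes tested were called in B6 and 17.2% in BALB. The 1 called was Mxi1, a Max partner that opposes Myc, with 92.3 ± 3.2 CPM in DP and 64.5 ± 3.9 in whole thymocytes (edgeR adjusted p = 0.0343). Without BALB DP replicate 1 and BALB whole replicate 1, more of these partners and antagonists were called lower in B6, as were more of all genes tested. Mycn, the relative of Myc, held 2.36 ± 0.22 CPM in B6 DP, 4.85 ± 0.82 in BALB DP, 6.63 ± 0.54 in B6 whole and 2.60 ± 2.0 in BALB whole thymocytes, and was not called in any comparison. Without BALB DP replicate 1 and BALB whole replicate 1, 1 of the 2 tested relatives, Nab1 and Mycn, was called higher in B6 whole thymocytes.

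Calls among the kinases and factors upstream of the members went in both directions from DP to whole thymocytes. Of 22 tested, 1 rose and 3 fell in B6 whole thymocytes, and 3 rose and 1 fell in BALB. The shares of all genes tested were 6.89% higher and 3.27% lower in B6, and 10.6% and 6.59% in BALB. Nfatc3, a calcium-responsive NFAT factor, fell from 1081 ± 54.0 to 741 ± 19.6 CPM in B6 and from 1073 ± 46.4 to 737 ± 26.3 in BALB. Nfatc2, its relative, rose from 32.9 ± 3.9 to 64.4 ± 5.3 CPM in BALB. In DP thymocytes 4 were lower in BALB and none higher, beside 6.14% and 6.85% of all genes tested. Mef2a, a factor that binds Nr4a1 regulatory DNA, was at 365 ± 22.6 CPM in B6 DP and 219 ± 31.0 in BALB DP (log2 fold change -0.73 ± 0.12; edgeR adjusted p = 0.00182). Elk3, a partner of SRF, was at 124 ± 14.3 and 68.9 ± 6.8 CPM. Without BALB DP replicate 1 and BALB whole replicate 1, more of these 22 were called in B6 whole thymocytes, as were more of all genes tested.

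**Figure D5:**
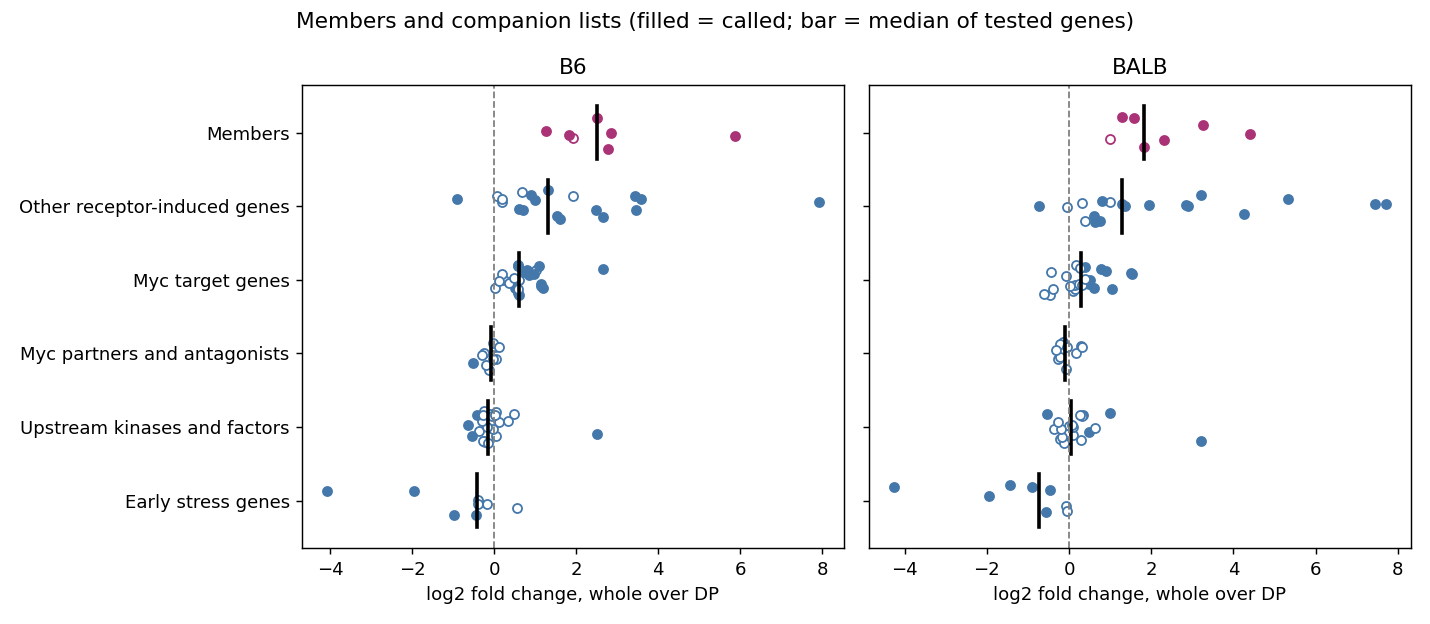
Log2 fold change, whole over sorted DP thymocytes, of the tested members (purple) and of 5 companion lists (blue) in B6 and BALB; each point is a gene, filled if its adjusted p was under 0.05, and black bars are medians. The medians of the early stress genes are below 0 (-0.42 and -0.72) and those of the members are the highest (2.51 and 1.82); in the list of other receptor-induced genes the fitted value of 1 gene per strain with no count in DP depends on the prior count.

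The genes whose pattern over the 8 libraries was most like that of a member were found by Pearson correlation of log2 CPM among genes with a mean of at least 10 CPM. These values describe libraries that share 2 populations and 2 strains, and 36 to 119 genes exceeded 0.95 for each member but Nr4a2, which had 2. Nab2 was among the first 3 for Egr1 (r = 0.985) and first for Nr4a3 (r = 0.988). Hivep3, a zinc finger gene, ranked second for Egr1 and for Nr4a3 (r = 0.988 and 0.987). For Nab2 itself the first 3 were Gm4532 (0.996), Cd69 (0.993) and 2010016I18Rik (0.993). Nr4a1 was closest to Pik3cd, the catalytic subunit of a phosphoinositide kinase (0.983), Nme1 (0.976) and Ephx1 (0.976). Myc was closest to Zbtb7b, the factor of the CD4 lineage (0.995), Chl1 (0.992) and Id2, an inhibitor of E proteins (0.990). Egr3 was closest to Sh3bp2 (0.996), Ipo4 (0.993) and Arhgef12 (0.992). The first for Egr1 was Galnt6 (0.993).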

How the data were processed

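RNA from 8 thymocyte samples was sequenced, and the TruSeq RNA Sample Prep Kit v2 made the libraries, per the labels' protocols. Alignment with HISAT2 2.2.0 to mm10, HTSeq counting and DESeq2 1.42.1 are named in the submitters' processing notes, without roles; neither the HTSeq version nor its annotation or strand setting is stated there. Deposited values are raw counts per gene symbol, 1 table per library. Counts in genes were 22.6% to 30.8% of each table's reads; the remainder, in rows that name no gene, stayed out of library sizes and tests.

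Genes were kept with filterByExpr (11409 of 23420). edgeR 4.0.16 in R 4.3.3 was fitted to all 8 libraries with TMM scaling, 1 coefficient per group and quasi-likelihood tests of 5 contrasts. P-values were Benjamini-Hochberg adjusted over all genes tested, with a threshold of 0.05. Limma 3.58.1 and DESeq2 1.42.0 served as alternatives. The test was tested on simulated data. Likeness used genes with a mean of at least 10 CPM and a prior count of 2. Intervals on counts and the floor of 3 counts cover counting error only.

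The members, companion lists and the libraries left out were chosen with earlier results of these data known. The text names all members. In each companion list it names genes from the 4 with the smallest p in either whole over DP comparison. It also names called genes from the first 3 in a strain comparison, or none where counts are given. For each tested member but Nr4a2 it names genes from the 3 most like it. Replicate numbers were not treated as pairs: correlations of deviations between same-numbered libraries were -0.0384 to 0.0574. Of the cell type marker lists, 2 genes are not reported here, and the sums leave them out.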

Additional observations from a re-analysis of the deposited data

How the results depend on the processing

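Between 5 and 7 members were called in whole over DP thymocytes of either strain under every alternative run, with 5 under the strict filter, which tested 5 members. BALB over B6 in DP gave 1 call (Nr4a1) with DESeq2, limma-voom, only the libraries compared and without both BALB libraries numbered 1, and 1 to 2 leaving out single libraries; Nr4a1 was called in all 17 alternatives (log2 fold change 1.30 to 1.83). In whole thymocytes the count was 1 with no filter, 3 with only the libraries compared, 2 without both BALB libraries numbered 1 and 0 to 1 leaving out single libraries. The interaction gave 1 call without both, and could not be run on only the libraries compared. With the replicate block the counts were 6, 6, 2, 0 and 0, so the block changed no call.

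Some uncalled values changed sign. In DP between strains, Egr3 was -0.063 with limma-voom and -0.76 to 1.04 leaving out single libraries, and Myc -0.16 to 0.19. In whole thymocytes, leaving out single libraries gave -0.66 to 0.87 for Nr4a2, -0.10 to 0.44 for Nr4a3 and -0.19 to 0.16 for Myc, which was 0.0096 without both BALB libraries numbered 1. For the interaction, single libraries gave -0.18 to 0.19 for Egr1, -0.57 to 1.23 for Egr3 and -0.23 to 0.17 for Myc. Without both, it was -0.041 for Egr1, -0.56 for Egr3, 0.21 for Nr4a2 and 0.012 for Myc, which was 0.029 with upper-quartile scaling and 4.89e-05 with limma-voom. The cause was not tested. Egr3, Nr4a2 and Nr4a3 had 15 or fewer counts per DP group, which sets wide counting intervals there. Whole over DP gave 1159 calls in B6 (378 to 2809 across alternatives) and 1961 in BALB (910 to 3976), BALB over B6 gave 1482 in DP (509 to 3493) and 524 in whole thymocytes (214 to 1050), and the interaction gave 14 (0 without B6 whole replicate 2, 1311 without BALB DP replicate 2). With upper-quartile scaling the share of calls that were higher in BALB whole over DP was 72.3%, against 61.7%.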
